A study of Bos taurus with 12 samples.

Results

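The genes described here carry vitamin A into cells, turn it into retinoic acid and read it in the nucleus, measured in the lining of the cow uterus, the endometrium (Bos taurus). Of 9 gene symbols listed for retinoid receptors and retinoic acid synthesis, 7 have a row in the count table of 13930 symbols: the receptors RARA, RARG, RXRA and RXRB, the enzyme ALDH1A1, the uptake receptor STRA6 and the binding protein CRABP2. RARB and ALDH1A2 were not analysed here. Members were taken by symbol, and all 7 passed the filter on low counts.

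Biopsies of the endometrium, taken into 4 classes by the concentration of progesterone recorded for day 4 of the cycle, were sequenced with 3 libraries in each class. In order of progesterone the classes were ANE (very low, under 0.25 ng/ml), LPP4 (low, under 1.4, which the labels give in mg/dl), HPP4 (high, over 2.5 ng/ml) and SO (very high, over 20 ng/ml). The labels name no treatment or genotype and do not explain the letters ANE and SO. Nor do they say that replicates of a class come from different animals, so a p-value here reflects only the spread among these libraries. That spread exceeded counting error, with a chi-square per degree of freedom of 21.8 to 284 between libraries of a class. Whether it lies between animals, biopsies or handling was not tested, and the classes may differ in more than progesterone.

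Vitamin A travels in blood as retinol, and STRA6 lets it into a cell. Inside, retinol is oxidised to retinal, and retinaldehyde dehydrogenases such as ALDH1A1 and ALDH1A2 oxidise retinal to retinoic acid, which CRABP2 carries to the nucleus. There a retinoic acid receptor (RARA, RARB or RARG), paired with a retinoid X receptor (RXRA, RXRB or RXRG), binds it and switches target genes, and the same retinoid X receptors also pair with other nuclear receptors. In the uterus this pathway is known for its links to steroid hormones and to decidualisation, the change of stromal cells in pregnancy that has been studied most in rodents and humans.

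Libraries held 3772564 to 8379489 counted reads, and 10959 genes were tested. The labelled tissue was checked against marker lists, each summed up as a score, the mean log2 level of its tested genes in a library. Stromal markers were present in every library, with HOXA10 at 59.9 to 275.6 CPM (the count scaled to library size, after TMM scaling), whereas the stromal marker FOXL2 was at 0 counts in ANE replicate 1. That library stood apart: its score over 14 of 14 smooth muscle markers was 11.4, against 4.83 and 6.08 in the other ANE libraries, 4.76 to 5.86 in LPP4, 9.07 to 10.3 in HPP4 and 9.06 to 10.1 in SO. Its epithelial score, over 12 of 14 markers, was 3.72, against 7.48 and 8.62 in the other ANE libraries, 6.85 to 7.91 in LPP4, 6.68 to 7.24 in HPP4 and 6.49 to 6.81 in SO. The epithelial adhesion molecule EPCAM was at 21.9 CPM there and at 234 to 584 CPM in the other 11 libraries. The smooth muscle myosin MYH11 was at 1455 CPM in ANE replicate 1, at 1.92 to 3.12 CPM in the other ANE libraries and LPP4, and at 221 to 769 CPM in HPP4 and SO. The macrophage score, over 7 of 12 markers, was 5.13 to 6.37 in ANE, 4.64 to 6.25 in LPP4, 3.57 to 4.19 in HPP4 and 3.103 to 4.03 in SO. By the slope over class rank edgeR called 6 of 7 macrophage and 3 of 7 neutrophil markers lower with more progesterone. It also called 2 of 10 T and NK cell markers and 2 of 12 epithelial markers lower. Of the smooth muscle markers it called 0 of 14, and of all tested genes 7.48%. Some immune and epithelial markers were thus called lower with more progesterone. In HPP4 against LPP4, 14 of 14 smooth muscle markers were higher in all libraries, although edgeR called 0 of them. Ranges did not overlap in that pair for 20.0% of all tested genes. The part of tissue make-up in the results below was not tested beyond 1 fit that took the smooth muscle score as covariate. That score did not overlap between LPP4 and HPP4 or SO, and within a class it spread widely only in ANE. The fit therefore rests largely on ANE replicate 1 and cannot separate muscle content from class. In bulk tissue, fewer cells of a type and less RNA per cell cannot be told apart.

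RARA, the retinoic acid receptor alpha, was lower in SO than in LPP4 and HPP4 in every library, and its contrast with ANE depended on ANE replicate 1. Its level was 47.9, 116 and 132 CPM in ANE, 65.2, 85.2 and 77.4 CPM in LPP4, 76.3, 68.6 and 79.8 CPM in HPP4, and 58.2, 62.2 and 54.7 CPM in SO. The SO libraries lay close together below all LPP4 and HPP4 libraries and below ANE replicates 2 and 3, while ANE replicate 1 was the lowest of all 12. Class means were 98.6 ± 44.6 CPM in ANE, 76.0 ± 10.1 CPM in LPP4, 74.9 ± 5.73 CPM in HPP4 and 58.4 ± 3.73 CPM in SO (SD, n = 3 each). Among neighbours in this order, ANE overlapped LPP4 and LPP4 overlapped HPP4, while HPP4 and SO did not overlap.

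**Figure D1:**
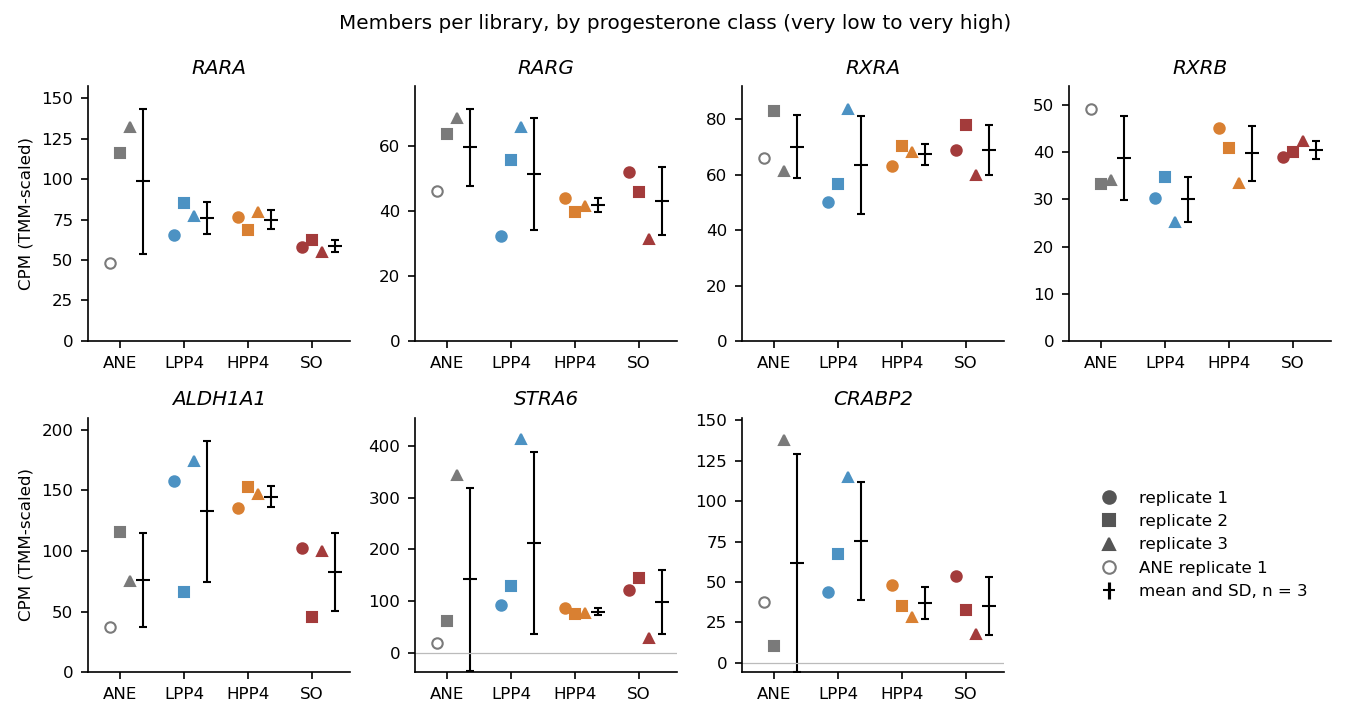
Level of each retinoid gene in CPM (vertical axes, 0 marked) in the 12 libraries, by class on the horizontal axis from ANE to SO; points are libraries, the open circle is ANE replicate 1, and bars are the mean ± SD of 3 libraries. RARA spans 54.7 to 62.2 CPM in SO and 47.9 to 132 CPM in ANE, and STRA6 and CRABP2 are high in ANE replicate 3 and LPP4 replicate 3.

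The log2 fold change of RARA in SO over ANE was -0.76 (standard error, SE, 0.30; 95% interval -1.43 to -0.09), with an unadjusted p of 0.0305 and 0.167 after adjustment by Benjamini and Hochberg over all tested genes (quasi-likelihood test of edgeR), which misses the threshold of 0.05. Without ANE replicate 1 the log2 fold change was -1.10 (SE 0.17; interval -1.47 to -0.72) and edgeR called it, with an adjusted p of 0.0153. There all 3 SO libraries lay below both remaining ANE libraries. In the same comparison 11 of 14 smooth muscle markers were called higher and 4 of 12 epithelial markers lower. Also called lower were 3 of 7 macrophage, 2 of 10 T and NK cell and 2 of 7 neutrophil markers. Of all tested genes 5.79% were called there. Without ANE replicate 3 the log2 fold change of RARA was -0.48 (SE 0.31, edgeR adjusted p = 0.347). The slope per class rank, a log2 change for each step from ANE to SO, was -0.23 (SE 0.09, edgeR adjusted p = 0.120) with all libraries. It was -0.32 (SE 0.06, edgeR adjusted p = 0.0113) without ANE replicate 1, and the joint test of the 4 classes had an adjusted p of 0.468 with that library and 0.0397 without it. Once the smooth muscle score entered the fit as covariate, the log2 fold change in SO over ANE was -0.24 (SE 0.21, edgeR adjusted p = 0.451). Within a class that score spread widely only in ANE, so this fit cannot separate muscle content from class. RARA was thus called lower in SO than in ANE only when the library with the highest smooth muscle and lowest epithelial score was left out. ANE replicates 2 and 3, where RARA was highest, had epithelial scores of 8.62 and 7.48 and these were among the 3 highest of the 12.

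The other contrasts of RARA were smaller. In SO over HPP4 the log2 fold change was -0.36 (SE 0.30, edgeR adjusted p = 0.9999), and it was -0.38 (SE 0.30, edgeR adjusted p = 0.680) in SO over LPP4, although no library overlapped in either pair. With the smooth muscle covariate, that in SO over LPP4 turned to 0.43 (edgeR adjusted p = 0.371), but the score itself did not overlap between these classes. In HPP4 over LPP4 the log2 fold change without the covariate was -0.02 (SE 0.30), with a 95% interval of -0.69 to 0.65.

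RARG, the retinoic acid receptor gamma, had its highest mean in ANE, as RARA did, but no contrast passed the test. Its level was 46.3, 63.8 and 68.8 CPM in ANE, 32.4, 55.8 and 66.0 CPM in LPP4, 44.1, 39.8 and 41.5 CPM in HPP4, and 51.9, 45.7 and 31.4 CPM in SO. All 3 HPP4 libraries lay below all 3 ANE libraries, whereas SO overlapped ANE, and LPP4 spread over most of the range of the other classes. Means were 59.6 ± 11.8 CPM in ANE, 51.4 ± 17.2 CPM in LPP4, 41.8 ± 2.20 CPM in HPP4 and 43.0 ± 10.5 CPM in SO (SD, n = 3 each), and each neighbouring pair overlapped. RARG had a log2 fold change of -0.51 (SE 0.28, edgeR adjusted p = 0.346) in HPP4 over ANE and -0.47 (SE 0.28, edgeR adjusted p = 0.329) in SO over ANE. In HPP4 over LPP4 it was -0.30 (SE 0.28, edgeR adjusted p = 0.745).

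Within a library, RARG and RARA did not keep a fixed ratio. The log2 ratio of their counts, which has no correction for gene length and so is read only across libraries, was -0.05 in ANE replicate 1, against -0.86 and -0.94 in ANE replicates 2 and 3. It ran from -1.01 to -0.23 in LPP4, from -0.94 to -0.79 in HPP4 and from -0.80 to -0.16 in SO. The HPP4 libraries were the most alike, and the class ranges overlapped.

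RXRA, the retinoid X receptor alpha, varied least of the 7 genes, by 1.67-fold between its lowest and highest library. Its level was 65.9, 82.9 and 61.4 CPM in ANE, 50.2, 56.8 and 83.7 CPM in LPP4, 63.2, 70.5 and 68.2 CPM in HPP4, and 68.9, 77.9 and 60.03 CPM in SO. The lowest and the highest library were both in LPP4, and all classes overlapped. RXRA had a log2 fold change of -0.02 in SO over ANE (SE 0.21; 95% interval -0.49 to 0.45; edgeR adjusted p = 0.961). In HPP4 over LPP4 it was 0.08 (SE 0.21; interval -0.39 to 0.55; edgeR adjusted p = 0.921). These intervals include changes in either direction, so equal levels are not shown.

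RXRB, the retinoid X receptor beta, had its lowest class mean in LPP4, and no contrast passed the test. Its level was 49.1, 33.3 and 34.1 CPM in ANE, 30.3, 34.7 and 25.2 CPM in LPP4, 45.1, 40.8 and 33.4 CPM in HPP4, and 38.9, 40.0 and 42.5 CPM in SO. All SO libraries lay above all LPP4 libraries, and the highest value of the 12 was that of ANE replicate 1. Means were 38.8 ± 8.93 CPM in ANE, 30.1 ± 4.75 CPM in LPP4, 39.8 ± 5.90 CPM in HPP4 and 40.5 ± 1.83 CPM in SO (SD, n = 3 each), and neighbouring classes overlapped. RXRB had a log2 fold change of 0.43 (SE 0.21, edgeR adjusted p = 0.459) in SO over LPP4, 0.40 (SE 0.21, edgeR adjusted p = 0.543) in HPP4 over LPP4 and 0.06 (SE 0.21, edgeR adjusted p = 0.889) in SO over ANE. The third receptor of this kind, RXRG, was near the detection limit, at 0 to 2.68 CPM over the 12 libraries.

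ALDH1A1, the enzyme that oxidises retinal to retinoic acid, had its highest class mean in HPP4 and its lowest in ANE and SO. Its level was 37.6, 116 and 75.1 CPM in ANE, 158, 65.9 and 174 CPM in LPP4, 135, 153 and 147 CPM in HPP4, and 103, 45.9 and 99.998 CPM in SO. Every HPP4 library lay above every SO and every ANE library, whereas LPP4 held both the highest value of the 12 and a value within the ANE range. Means were 76.1 ± 39.0 CPM in ANE, 132.6 ± 58.3 CPM in LPP4, 144.8 ± 8.96 CPM in HPP4 and 82.8 ± 32.0 CPM in SO (SD, n = 3 each). In HPP4 over ANE the log2 fold change was 0.93 (SE 0.46; 95% interval -0.08 to 1.94; edgeR adjusted p = 0.298). In SO over HPP4 it was -0.81 (SE 0.46; interval -1.82 to 0.20; edgeR adjusted p = 0.9999). The separation of HPP4 from both extremes therefore did not pass the test in either pair, and the slope over class rank, 0.05 (SE 0.19), had an adjusted p of 0.884 in edgeR. In SO over ANE the log2 fold change was 0.12 (SE 0.46, edgeR adjusted p = 0.892), and without ANE replicate 1, which had the lowest ALDH1A1 level, it was -0.21 (SE 0.43, edgeR adjusted p = 0.807).

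STRA6, the cell surface receptor that takes up retinol from its carrier in blood, varied most, by 21.1-fold between libraries. Its level was 19.6, 62.0 and 345 CPM in ANE, 92.3, 129 and 414 CPM in LPP4, 87.3, 74.7 and 76.8 CPM in HPP4, and 122, 144 and 28.6 CPM in SO. Replicate 3 of ANE and of LPP4 were far above the other 10 libraries, and the 3 HPP4 libraries were alike and lay below all LPP4 libraries. Means were 142.2 ± 177 CPM in ANE, 211.9 ± 176 CPM in LPP4, 79.6 ± 6.77 CPM in HPP4 and 98.5 ± 61.5 CPM in SO (SD, n = 3 each), and the SD exceeded the mean in ANE. The log2 fold change in HPP4 over LPP4 was -1.41 (SE 0.94; 95% interval -3.48 to 0.66; edgeR adjusted p = 0.627), and without LPP4 replicate 3 it was -0.47. In SO over ANE it was -0.53 (SE 0.92; interval -2.57 to 1.5; edgeR adjusted p = 0.757), and it turned to 1.28 without ANE replicate 3.

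CRABP2, which delivers retinoic acid to its receptors and is itself a known target of them, was high in the same libraries. Its level was 37.5, 10.1 and 138 CPM in ANE, 43.5, 67.2 and 115 CPM in LPP4, 48.0, 34.8 and 28.5 CPM in HPP4, and 53.8, 32.8 and 17.9 CPM in SO. ANE held both the lowest and the highest of the 12 values, and all classes overlapped. Means were 61.9 ± 67.4 CPM in ANE, 75.3 ± 36.5 CPM in LPP4, 37.1 ± 9.97 CPM in HPP4 and 34.8 ± 18.0 CPM in SO (SD, n = 3 each). CRABP2 had a log2 fold change of -1.02 (SE 0.75, edgeR adjusted p = 0.665) in HPP4 over LPP4 and -0.83 (SE 0.75, edgeR adjusted p = 0.518) in SO over ANE, which turned to 0.54 without ANE replicate 3. The stromal score, over 10 of 12 markers, was highest in the same libraries in which STRA6 and CRABP2 were highest, 10.03 in ANE replicate 3 and 9.71 in LPP4 replicate 3, and it was 7.61, the lowest, in ANE replicate 2, where CRABP2 was lowest. In the other 9 libraries it ran from 8.28 to 9.21. The endothelial score, over 10 of 10 markers, was also highest in LPP4 replicate 3, at 5.09, and lowest in ANE replicate 1, at 3.50, where STRA6 was lowest, but it was 4.74 in ANE replicate 3, below all but 1 of the HPP4 libraries. The part of stromal and endothelial content in these levels was not tested.

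**Figure D2:**
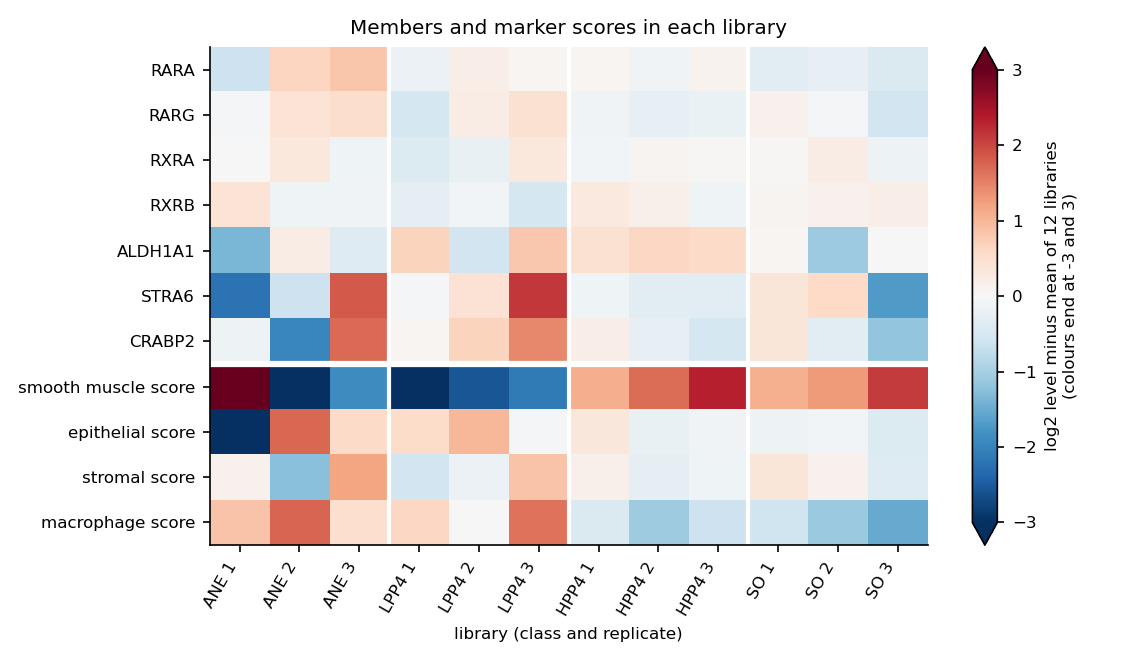
Log2 level of the 7 retinoid genes (above the white line) and marker scores (below it) in each library, on the horizontal axis by class and replicate, as the difference from the mean of the 12 libraries in colour (red higher, blue lower, ending at -3 and 3). ANE replicate 1 has the smooth muscle score of 11.4 and the epithelial score of 3.72, and STRA6, CRABP2 and the stromal score are high together in ANE replicate 3 and LPP4 replicate 3.

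Over the 7 genes, edgeR called none in SO against ANE, where 1.52% of all tested genes were called, and none by the slope over class rank, where 7.48% were. It called none of the 7 in the joint test, in HPP4 against LPP4, SO against LPP4, HPP4 against ANE, SO against HPP4 or LPP4 against ANE, and in each of these tests 0% of all genes were called. At an unadjusted p under 0.05, RARA was the only one of the 7 in SO against ANE, where 23.8% of all tested genes were, and in the slope, where 27.9% were. There was none in the other tests. DESeq2 called none of the 7 in SO against ANE, in the joint test or in the slope, where it called 13.8%, 11.9% and 18.3% of all genes. limma-voom also called none of the 7 there, against 0.00912%, 0% and 3.28% of all genes. Without ANE replicate 1, edgeR called 1 of the 7, RARA, in SO against ANE, in the joint test and in the slope, where 5.79%, 1.97% and 13.2% of all genes were called. The median log2 fold change of the 7 was -0.47 in SO over ANE, beside -0.12 over all tested genes, and -0.02 in HPP4 over LPP4, beside -0.02 over all tested genes.

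**Figure D3:**
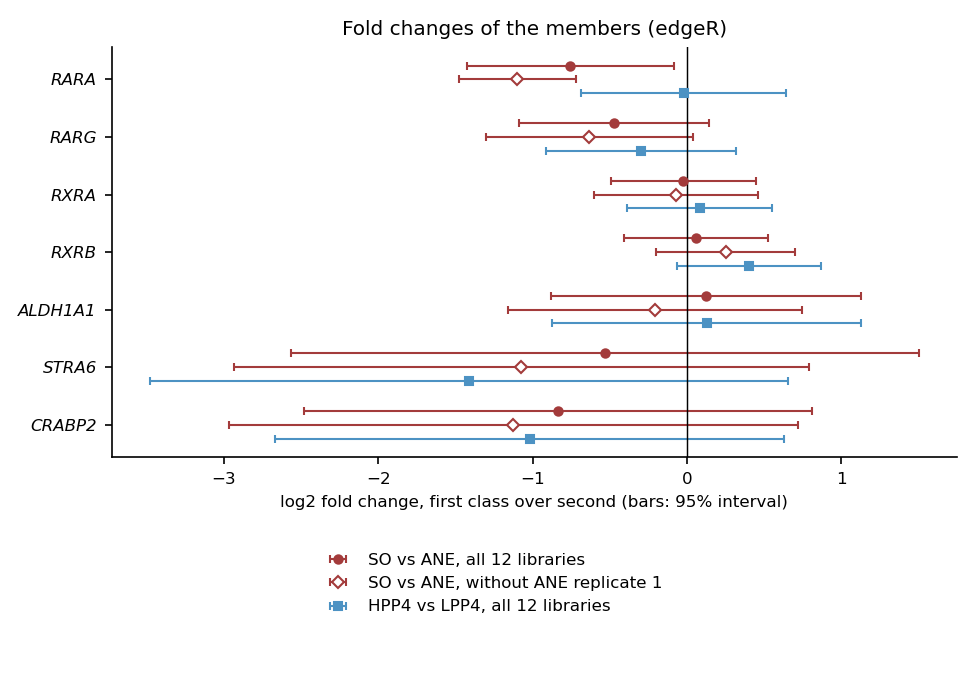
Log2 fold change of each retinoid gene (horizontal axis, first class over second) with its 95% interval as a bar, for SO over ANE with all 12 libraries, for SO over ANE without ANE replicate 1, and for HPP4 over LPP4. Intervals of RARA in SO over ANE lie below 0, at -1.43 to -0.09 and, without ANE replicate 1, at -1.47 to -0.72, and those of STRA6 and CRABP2 are the widest.

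Pairs of classes whose libraries did not overlap were common among all genes. In SO against ANE, 0 of the 7 genes had ranges that did not overlap, where 25.7% of all tested genes had. In HPP4 against LPP4 it was 1 (STRA6, lower) beside 20.0%, in SO against LPP4 2 (RARA lower, RXRB higher) beside 22.8%, and in HPP4 against ANE 2 (RARG lower, ALDH1A1 higher) beside 20.4%. In SO against HPP4 it was 2 (RARA and ALDH1A1, both lower) beside 7.09%, and in LPP4 against ANE 0 beside 9.74%. All pairs that hold ANE share its libraries, so they are not independent of each other.

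Other genes of retinoid handling were taken from a list of 36, of which 29 have a row and 21 were tested. In the pairs and the joint test edgeR called 0 of 21. By unadjusted p under 0.05 there were 4 in SO against ANE, 2 in HPP4 against LPP4 and 5 in the joint test, beside 23.8%, 10.3% and 17.8% of all tested genes. LRAT, which stores retinol as retinyl esters, had the smallest joint p. Its level was 3.18, 1.55 and 32.2 CPM in ANE, 102, 129.9 and 23.2 CPM in LPP4, 178, 159.5 and 137 CPM in HPP4, and 138, 125 and 141 CPM in SO. All SO and HPP4 libraries lay above all ANE and LPP4 libraries except that LPP4 replicate 2 was above SO replicate 2. LRAT had a log2 fold change of 3.41 (SE 0.94, edgeR adjusted p = 0.0758) in SO over ANE, which misses the threshold. DESeq2 called it there, where it called 13.8% of all genes. Without ANE replicate 3, the ANE library in which LRAT was highest, edgeR called LRAT higher in SO, HPP4 and LPP4 than in ANE, where 2.92%, 1.12% and 0.144% of all genes were called. With the smooth muscle covariate it called LRAT in SO against ANE and in HPP4 against ANE, where 16.5% and 10.4% of all genes were called. In each of these pairs LRAT was called under 3 of 21 alternatives and not under 18. In LPP4 against ANE it was called under 1 of 21.

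CYP26A1, which breaks down retinoic acid and is itself induced by it, had its highest class means in SO and HPP4, but no contrast passed the test in edgeR with all libraries and no covariate. Its level was 0, 16.8 and 1.82 CPM in ANE, 3.43, 6.53 and 2.61 CPM in LPP4, 35.6, 17.2 and 63.0 CPM in HPP4, and 28.6, 113 and 15.7 CPM in SO. All HPP4 and SO libraries lay above all LPP4 libraries, whereas ANE replicate 2 reached the SO range. In ANE replicate 1 the count of 0 allows a level of up to 0.530 CPM (3 counts, counting error only). The log2 fold change was 3.20 (SE 1.23, edgeR adjusted p = 0.410) in HPP4 over LPP4 and 3.14 (SE 1.24, edgeR adjusted p = 0.161) in SO over ANE, so neither passed. The slope per class rank was 1.24 (SE 0.40, edgeR adjusted p = 0.0734). CYP26A1 was called by DESeq2 in the joint test and the slope, where 11.9% and 18.3% of all genes were called. By edgeR it was called in the slope without ANE replicate 2, where 1.08% of all genes were. With the smooth muscle covariate edgeR called it in SO against ANE and HPP4 against ANE, where 16.5% and 10.4% of all genes were called. These calls came under 1 of 20 alternatives in the joint test, 2 of 20 in the slope and 1 of 21 in each of these pairs.

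In the slope over class rank, edgeR called 1 of the 21, beside 7.48% of all tested genes. It was FABP5, which was singled out after its values were seen. FABP5 carries fatty acids and can carry retinoic acid to another receptor, PPARD. Its level was 61.9, 45.4 and 49.9 CPM in ANE, 34.7, 15.4 and 85.1 CPM in LPP4, 28.4, 14.5 and 29.7 CPM in HPP4, and 24.1, 11.6 and 10.9 CPM in SO. Every HPP4 and SO library lay below every ANE library, and LPP4 spread across all of them. FABP5 fell by 0.62 on the log2 scale per class rank (SE 0.17, edgeR adjusted p = 0.0475). The call was lost under 15 of 20 alternatives, among them limma-voom and 10 of the 12 fits that left out 1 library, such as that without ANE replicate 1 (edgeR adjusted p = 0.0573).

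Genes known to respond to retinoic acid, 10 tested of 18 listed and 15 with a row, had no call in any pair, in the joint test or in the slope. By unadjusted p under 0.05 there were 3 in SO against ANE, 2 in HPP4 against LPP4, 4 in the joint test and 3 in the slope, beside 23.8%, 10.3%, 17.8% and 27.9% of all tested genes. The homeobox gene MEIS1 was at 429, 94.5 and 131 CPM in ANE, 59.3, 87.6 and 63.7 CPM in LPP4, 82.8, 81.2 and 131 CPM in HPP4, and 81.3, 81.6 and 74.3 CPM in SO. Its highest value by far was that of ANE replicate 1, and its log2 fold change in SO over ANE was -1.46 (SE 0.48, edgeR adjusted p = 0.109). THBD, the anticoagulant thrombomodulin, was at 9.93 to 29.6 CPM in the 9 libraries of the other classes, against 84.7, 122 and 11.3 CPM in ANE. ANE replicate 3 lay within the range of the other classes, and the log2 fold change in SO over ANE was -1.99 (SE 0.71, edgeR adjusted p = 0.130). Without that library edgeR called THBD lower in SO and in HPP4 than in ANE, where 2.92% and 1.12% of all genes were called. In these pairs THBD was called under 2 of 21 and 1 of 21 alternatives. Without ANE replicate 1, TGM2, the tissue transglutaminase and a known target of retinoic acid, was called higher in SO than in ANE (log2 fold change 1.81, SE 0.30, edgeR adjusted p = 0.0191). In that fit 5.79% of all genes were called in this pair, and TGM2 was called there under 1 of 21 alternatives. With that library its log2 fold change was 0.72 (SE 0.52, edgeR adjusted p = 0.426). TGM2 was at 665, 653 and 394 CPM in SO, against 718 CPM in ANE replicate 1 and 187 and 137 CPM in the other ANE libraries. The homeobox gene MEIS2 was likewise called only without ANE replicate 1 and only in the slope, at 1.02 per class rank (SE 0.29, edgeR adjusted p = 0.0409). In that slope 13.2% of all genes were called.

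Nuclear receptors that pair with retinoid X receptors (9 tested of 13 listed, 12 with a row) and coregulators of these receptors (6 tested of 10 listed, all 6 with a row) had no call either. THRA, the thyroid hormone receptor alpha, was at 63.7, 59.6 and 76.1 CPM in HPP4, against 36.4, 45.4 and 32.6 CPM in LPP4. These classes did not overlap, and the log2 fold change was 0.80 (SE 0.28, edgeR adjusted p = 0.385). PPARA, a receptor for fatty acids, was at 13.5, 16.5 and 21.6 CPM in SO, against 4.77, 9.03 and 11.6 CPM in ANE. All SO libraries lay above all ANE libraries, with a log2 fold change of 1.02 (SE 0.37, edgeR adjusted p = 0.133). Among the coregulators, MED1 of the Mediator complex had a joint adjusted p of 0.344 and the coactivator NCOA1 one of 0.378 in edgeR. Over all 46 tested genes of the 4 lists the median log2 fold change was 0.00 in SO over ANE, beside -0.12 over all tested genes, and 0.06 in HPP4 over LPP4, beside -0.02. DESeq2 called 5 of the 46 in SO against ANE (LRAT, PPARA, MEIS1, THBD and FABP5), 5 in the joint test and 6 in the slope, beside the 13.8%, 11.9% and 18.3% of all genes. limma-voom called none of the 46.

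**Figure D4:**
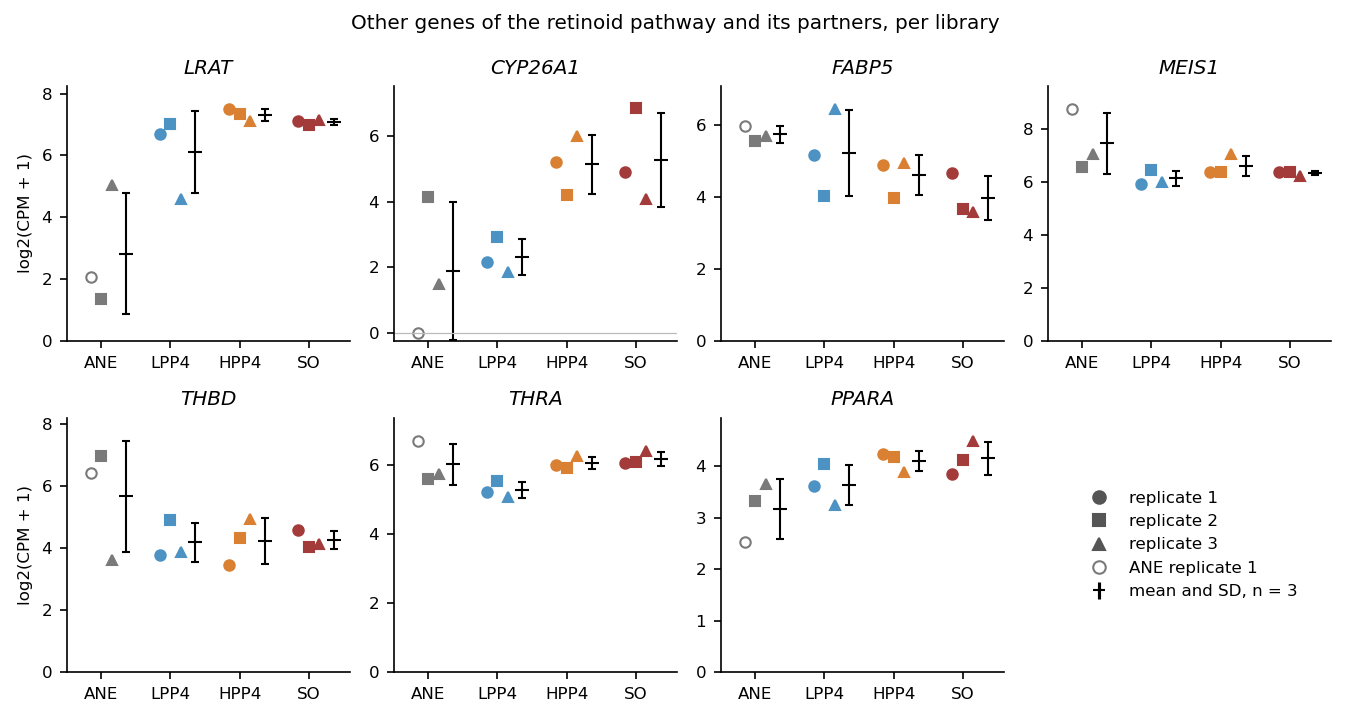
Level as log2(CPM + 1) (vertical axes) of 7 other genes of the retinoid pathway or partners of its receptors in the 12 libraries, by class on the horizontal axis; points are libraries, the open circle is ANE replicate 1, and bars are the mean ± SD of 3 libraries. LRAT is higher in all HPP4 and SO libraries than in all ANE libraries, but LPP4 replicate 2 is within the SO range. CYP26A1 is higher in all HPP4 and SO libraries than in all LPP4 libraries, but ANE replicate 2 is within the SO range. CYP26A1 is at 0 in ANE replicate 1, and MEIS1 is highest in ANE replicate 1.

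The genes whose log2 CPM ran most like those of ALDH1A1 and RARA, the members with the smallest joint p, were named as a description over the 12 libraries, which share classes and tissue make-up. For ALDH1A1 they were C5 (Pearson correlation 0.919), TSPEAR (0.884) and ORAI1 (0.845), and for RARA they were MATN4 (0.938), MDFI (0.929) and DNASE1L2 (0.929). These are the closest of 10959 genes, so high values come with the choice.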

How the data were processed

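Per the labels' protocols, RNA of endometrial biopsies was extracted with Trizol, treated with DNase, selected with oligo-dT and made into stranded TruSeq libraries, which were pooled and sequenced as paired reads. The authors deposited raw counts per gene symbol, 1 column per sample, neither scaled nor pooled. Trimmomatic 0.32, FastQC 0.11.2 and 2 builds, bosTau8 and UMD3.1, stand in the submitters' processing notes. The aligner, the counting program with its strand setting and the gene models were not given in the sources used here. A RefSeq gene table of another build, ARS-UCD2.0, was used for names only, and in it none of the 7 genes overlaps another gene. Of the 9 symbols listed, RARB and ALDH1A2 were not analysed here.

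The counts were analysed in R 4.3.3, where edgeR 4.0.16 kept 10959 genes (filterByExpr, count minimum of 10), scaled libraries by TMM and fitted the means of 4 classes to all 12 libraries (8 residual degrees of freedom, biological coefficient of variation 44%). Tests were the 6 pairs, a joint test and a slope on class rank 1 to 4, with Benjamini-Hochberg adjustment over all tested genes and a threshold of 0.05. Fold changes are of the first class over the second. DESeq2 1.42.0, limma-voom 3.58.1, other scalings and filters, thinning to the smallest library, a replicate block, a smooth muscle covariate and leaving out each library were alternatives. All members were named, and of each further list the 2 genes with the smallest joint p where none was called. The members and lists were chosen with earlier results of these data known. Totals set the counting precision, and the limit given for a count of 0 covers counting error only. The 95% intervals of fold changes come from the edgeR fit and include the spread among libraries.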

Additional observations from a re-analysis of the deposited data

How the results depend on the processing

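The number of retinoid genes called was 0 in each of the 8 tests with all libraries and under every alternative but one. Without ANE replicate 1 it was 1 (RARA) in SO against ANE, in the joint test and in the slope, so leaving out 1 library gave 0 to 1 there. With the replicate block it stayed 0, and the adjusted p of RARA in edgeR was 0.231 in SO over ANE and 0.168 in the slope. Correlations of the libraries' deviations ran from -0.298 to 0.294 between libraries of the same replicate number and from -0.391 to 0.369 between the others. These values rest on 3 libraries a class, and whether the replicate numbers pair the samples was not tested beyond them. Of the alternatives of single values, 395 kept direction and side of the threshold, 37 turned direction and 2 were newly past it. The log2 fold change of STRA6 in SO over ANE turned to 0.0406 with limma-voom, 0.27 with the replicate block and 0.76 with the smooth muscle covariate. That of RXRA turned to 0.17 with library totals alone, 0.0321 with no filter, 0.00804 with the pair alone and 0.0150 with the covariate, and that of RXRB to -0.0634 with the covariate. In HPP4 over LPP4, RARA turned to 0.0354 with library totals alone, 0.0324 with thinning and 0.83 with the covariate, RARG to 0.00516 and STRA6 to 0.55 with the covariate. Slopes with the covariate turned to -0.00234 for RXRA, -0.0289 for RXRB and 0.24 for STRA6. Leaving out each library gave ranges in SO over ANE of -0.11 to 0.16 for RXRA, -0.0278 to 0.25 for RXRB, -0.21 to 0.59 for ALDH1A1, -1.07 to 1.28 for STRA6 and -1.30 to 0.54 for CRABP2. In HPP4 over LPP4 they were -0.11 to 0.0759 for RARA, -0.0528 to 0.33 for RXRA and -0.19 to 0.37 for ALDH1A1, and for slopes -0.0144 to 0.0585 for RXRA and -0.0858 to 0.20 for ALDH1A1. The cause of these turns was not tested. Over all genes, calls in SO against ANE ran from 0 (pair alone, replicate block, without SO replicate 1 or 2) to 1808 (covariate), and those of the slope from 1 (without SO replicate 3) to 2008 (DESeq2). The median log2 fold change of all genes in SO over ANE was -0.12 with TMM and 0.09 with library totals alone. With 3 libraries a class, the 95% intervals of STRA6 and CRABP2 are the widest of the 7, and changes within them were not detectable.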

Other observations

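RARRES1 and RARRES2, chosen after their values were seen, were high in the same libraries as STRA6 and CRABP2. RARRES1, a gene first found by its response to retinoids, was at 2032 CPM in ANE replicate 3 and 2732 CPM in LPP4 replicate 3, and at 77.2 to 366 CPM in the other 10 libraries. RARRES2, which encodes the secreted protein chemerin, was highest in the same libraries, at 288 and 459.5 CPM. RBP4, the blood carrier of retinol, was also highest in LPP4 replicate 3, at 637 CPM, but its 322 CPM in ANE replicate 3 lay below SO replicate 1 (443 CPM) and HPP4 replicate 1 (338 CPM). RARRES1 had a log2 fold change of -2.54 (SE 1.05, edgeR adjusted p = 0.441) in HPP4 over LPP4 and of -2.44 (SE 1.05, edgeR adjusted p = 0.188) in SO over ANE, so neither passed. Of the stromal list, the structural protein VIM was highest in these libraries too, at 3428 and 4342 CPM. The matrix protein DCN was highest in LPP4 replicate 3, at 10162 CPM, but its 6083 CPM in ANE replicate 3 lay below the 6148 CPM of SO replicate 1, and COL1A1 was highest in ANE replicate 1, at 8639 CPM.

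PPARG and NR1H4, receptors that pair with retinoid X receptors, and the homeobox genes CDX1 and HOXA4 were listed at 0 counts in all 12 libraries. So were 1378 symbols in all, among them the macrophage markers AIF1, C1QA, C1QB and C1QC, while the macrophage marker CD68 was at 10.7 to 133 CPM. No level is read from such rows here. RDH10, which oxidises retinol to retinal, was at 13.6 CPM in ANE replicate 1 and at 34.0 to 80.8 CPM in the other 11 libraries. DHRS3, which turns retinal back to retinol, was likewise lowest there, at 55.0 CPM, against 108 to 329 CPM in the others.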
